A study of Mus musculus with 4 samples.

Results

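The 3T3-L1 line was compared at day 4 and day 0 of induced adipocyte differentiation, with 1 microarray at each time. These 2 arrays, of 4 in the series, were chosen by their labels. 3T3-L1 is a mouse fibroblast line already committed to the fat lineage. The day 0 sample was taken at the start of induction and the day 4 sample afterwards. The inducing agents, and whether an RNA sample came from 1 dish or several, are not given in the sources used here. The other 2 arrays hold C3H10T1/2, a mouse line of less committed mesenchymal cells, at the same times. The array carries probes for mRNAs and long noncoding RNAs of mouse.

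Fat cell formation in 3T3-L1 is known as a cascade. Inducing signals first raise the early factors C/EBPβ and C/EBPδ, the cells pass through rounds of division, and PPARγ with C/EBPα then switches on the genes of fat storage and insulin response. Citrate from glucose feeds fatty acid synthesis, which also draws NADPH from the pentose phosphate pathway. Apart from the few named genes given below, these genes, and all markers of preadipocytes and of other cell types, were not analysed here. The scanner files pair only 15 probes with a RefSeq transcript, and none of the 15 genes is a defining marker of fat cells or preadipocytes, so the labelled cell state could not be checked against markers.

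Signals were well above background for 63.9% of 60900 probes at day 0 and 60.6% at day 4, and saturated spots were not found on either array. Intensities had their 75th percentile at 387.9 on day 0 and at 356.0 on day 4. A level below is the log2 intensity minus this percentile of the same array. Probes entered the comparison if either day was well above background, which held for 40237 of them. With 1 array a side, a difference has no replicate check, no test and no p-value, and precision is limited by having so few arrays.

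Among differences of 2-fold or more, more 3T3-L1 probes had lower than higher signals at day 4, while among the brightest probes higher signals were the more frequent. Signals were 2-fold or more higher for 3399 probes, 8.45% of those compared, and as much lower for 4273, or 10.6%. Together these were 19.1% of the probes. Above background on both arrays were 2949 of the higher and 3228 of the lower probes, and on only 1 array 450 and 1045. In C3H10T1/2, by the same rule, 8.52% were higher and 7.62% lower. The excess of lower over higher probes in 3T3-L1 was also found with 4 of the 5 other scalings. These are not all separate checks, since normexp was itself followed by quantile normalization. The authors' values gave 3520 higher and 4182 lower, nearly the 3523 and 4181 of quantile normalization. The excess turned with scaling to the median of each array, where 4078 were higher and 3661 lower. That scaling put the median log2 difference of the compared probes at 0.14, against 0.03 in the main values. The middle part of the probes, from the 25th to the 75th percentile, lay between -0.45 and 0.45 on the log2 scale.

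The balance turned with the size of the difference. Past 4-fold there were 881 probes with higher and 1091 with lower signals, and past 8-fold 301 and 321. At 16-fold or more, 122 were higher and 94 lower, and at 32-fold or more, 48 and 26. So lower signals were the more frequent at 2-fold and higher signals at 16-fold. The latter held under the 5 other scalings. It was narrowest, at 112 higher and 99 lower, with the 75th percentile of probes above background on all arrays. With normexp the counts were 57 and 39, and with scaling to the median 137 and 82. Where a probe was below background on 1 array, its difference is a bound, taken after raising a dimmer value on that array to the lowest above-background signal there. Among the 122 and 94 probes past 16-fold, 41 and 33 were counted by such bounds.

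The scanner software gives each spot an error from its own noise model, which holds the noise of 1 array only. Of the 3399 higher probes, 96.9% had a difference larger than 2 combined errors of the spots, and of the 4273 lower probes 93.0%. High shares were largely built in, because these probes had been chosen for a difference of 2-fold or more. Over 10 parts by signal, the median combined error was only 14.1% to 36.9% of the signal. Over 16 blocks of position on the array, the median log2 difference ran from -0.10 to 0.11, the share of higher probes from 6.94% to 10.4% and that of lower probes from 9.46% to 12.8%. Of the 300 spots that the array names as negative controls, 3 were well above background at day 0 and 6 at day 4. Their median log2 difference was 0.22, so the floor itself was not level between the scaled arrays.

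In the main values, the balance of higher and lower probes also went with the level of signal. Probes were ordered by the mean level of both days and cut into 10 equal parts. In the dimmest part 5.39% were higher and 10.5% lower. In the brightest part 11.1% were higher and 5.09% lower. The share of higher probes was 6.06% in the third part from the dim end and 12.3% in the ninth, while that of lower probes was 13.8% in the second and 9.77% in the ninth. Differences of 8-fold or more in the brightest part were higher for 35 probes and lower for 10.

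**Figure D1:**
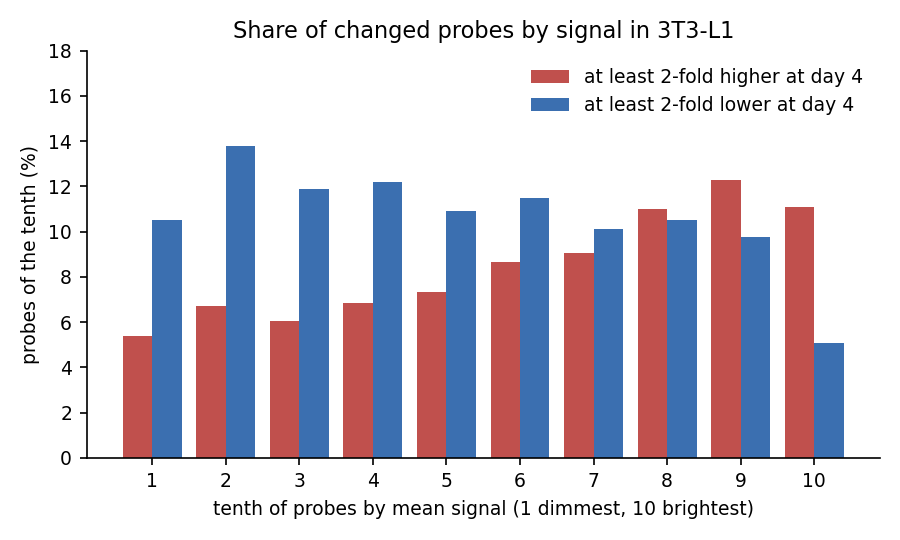
Bars give the percentage of probes in each of 10 equal parts by mean signal that were at least 2-fold higher (red) or lower (blue) at day 4 than at day 0 in 3T3-L1, with 1 array a day. Lower probes outnumber higher ones up to the seventh part, and in the brightest part 11.1% were higher and 5.09% lower.

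In 5 parts of the same order, the brightest held 940 higher and 598 lower probes. Higher probes stayed in excess there under all 5 other scalings, but by little under 3 of them. The counts were 761 and 744 with quantile normalization, 760 and 742 with the authors' values, and 744 and 725 with normexp. In the dimmest of the 5 parts 488 were higher and 978 lower. The excess of lower probes held there under the 5 other scalings, but its size depended on them. The counts were 660 and 813 with quantile normalization and with the authors' values, and 23 and 31 with normexp. They were 623 and 842 with scaling to the median, and 416 and 1125 with the other 75th percentile. Without the filter on dim probes, which fills that part with probes below background, 26 were higher and 2 lower. Brightness was taken from the same arrays as the differences, and the median combined spot error was 36.9% of the signal in the dimmest of 10 parts and 14.1% in the brightest.

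**Figure D2:**
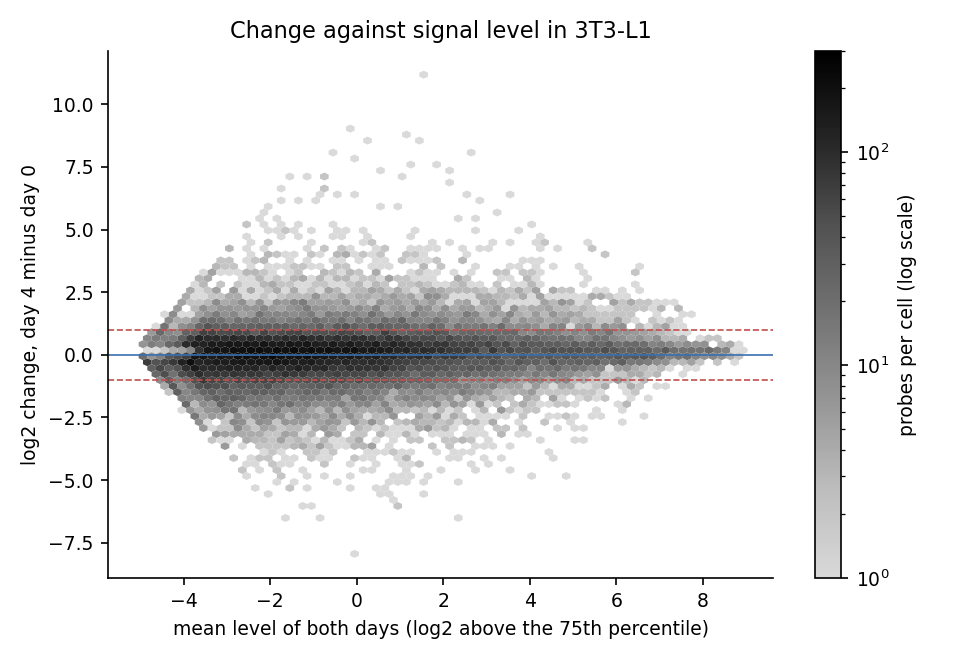
Each cell counts probes by the mean level of both days on the x axis and the log2 difference, day 4 minus day 0, on the y axis (1 array a day in 3T3-L1, 40237 probes). Dashed lines mark 2-fold; the slanted edges at the left are probes below background on 1 array, whose differences are bounds.

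The brightest probes were largely shared between the days. Of the 100 brightest probes at day 0, 80 were among the 100 brightest at day 4, and of the 1000 brightest, 799. The 201 probes that entered the top 1000 had a median log2 difference of 1.32, and 129 of them were at least 2-fold higher. The 201 that left it had a median of -0.38, and 61 were at least 2-fold lower. Most probes that entered thus differed by 2-fold or more, and most that left did not. The lowest day 0 level among the probes that entered was -4.23. The 1000 brightest probes held 50.5% of the summed intensity of all probes at day 0 and 51.3% at day 4.

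Detection turned over in 1 direction more than in the other. At day 4 only, 1292 probes were well above background, and at day 0 only, 3355. Most were dim, with median intensities of 39.3 for the first on day 4 and 41.0 for the second on day 0. By their bounds, 450 of the first were higher by 2-fold or more and 1045 of the second lower. Background was judged on each array before scaling, and the median intensity of all probes was 70.1 at day 0 and 59.8 at day 4. The part of this in the turnover was not tested. Of the 1292 probes seen at day 4 only, 707 were below background on both C3H10T1/2 arrays, 399 were seen there at day 4 only and 44 at day 0 only. Of the 3355 seen at day 0 only, 1567 were seen on neither C3H10T1/2 array, 648 at day 0 only and 293 at day 4 only.

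The largest differences measured on both days ran from dim to bright signals. By the rule for named probes, the 2 highest and 2 lowest above background on both arrays are given by their identifiers, since the files pair them with no gene. ASMM10P018642 had an intensity of 42.8 at day 0 and 16270 at day 4. ASMM10P049636 had 58.8 and 18560. Their log2 differences were 8.69 and 8.43, or 414-fold and 344-fold. The day 0 spots had errors of 16.6% and 13.9%, so the folds rest on dim signals.

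Both were also higher in C3H10T1/2, where ASMM10P018642 had 148.6 and 48000 and ASMM10P049636 had 671.2 and 15770. The difference of the second probe was smaller there, with a log2 value of 4.37. Among the lowest, ASMM10P007176 had 19200 at day 0 and 199.9 at day 4 in 3T3-L1, a log2 difference of -6.46 or 88.1-fold lower. ASMM10P007209 had 6042 and 87.3, a log2 difference of -5.99. These were lower in C3H10T1/2 too, by -2.93 and -3.26. A probe of the same series had the largest bound, with an intensity of 20.7 at day 0, below background, and 53070 at day 4, at least 2320-fold higher.

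Probe names divide the array into families. The main series, ASMM10P, had 39263 probes above background on at least 1 day, of 58128. Of these, 8.53% were higher and 10.6% lower. The ASMM10UP series, a name not explained in the sources used here, had a larger excess of lower probes. It had 12 higher and 66 lower of 401 probes, or 2.99% and 16.5%, and its median log2 difference was -0.16. In each of 5 parts by signal, lower ASMM10UP probes outnumbered higher ones, with shares of lower probes between 15.9% and 16.8%, against 7.42% to 12.2% in the ASMM10P series.

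The excess of lower ASMM10UP probes was found under all 5 other scalings, from 32 lower and 5 higher with normexp to 71 and 10 with the other 75th percentile. Among those above background on both arrays, 11 were higher and 43 lower of 315. In C3H10T1/2 8 were higher and 36 lower of 352. Of 57 lower probes in 3T3-L1 that were measured in both lines, 26 were also lower in C3H10T1/2 and 1 was higher. Over all families, 1321 of 3777 such probes, or 35.0%, were also lower there. No difference between families has a test in this design.

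**Figure D3:**
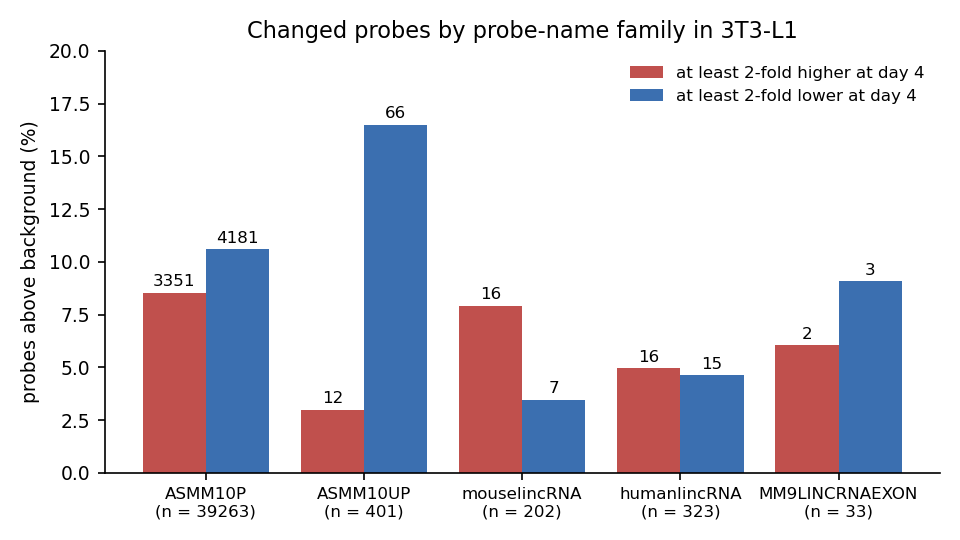
Bars give the percentage of probes at least 2-fold higher (red) or lower (blue) at day 4 in 3T3-L1, among probes well above background on at least 1 day, for 5 families of probe names; the numbers on the bars are counts of probes. The ASMM10UP series had 66 lower and 12 higher probes, while the other small families had 16 or fewer of either kind.

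Probes named for long intergenic noncoding RNAs, transcripts from between protein-coding genes that are mostly of low abundance, were dim. Their median mean levels were -2.50 for mouselincRNA and -2.52 for humanlincRNA probes, against -0.88 in the ASMM10P series. Of 649 mouselincRNA probes, 28.2% were above background at day 0 and 27.7% at day 4, and of 1102 humanlincRNA probes 26.5% and 26.1%. The mouselincRNA family had 16 higher and 7 lower probes of 202, and the humanlincRNA family 16 and 15 of 323. These were 7.92% higher and 3.47% lower, and 4.95% and 4.64%, against 8.45% and 10.6% of all probes. Measured above background on both days were 8 of the 16 higher and 6 of the 7 lower mouselincRNA probes, and 11 and 8 of the humanlincRNA probes. The first balance was lost with the other 75th percentile (9 and 9), and the second ran from 24 and 11 to 14 and 16 over the other scalings other than normexp. The 83 MM9LINCRNAEXON probes gave 2 and 3 of 33.

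Median log2 differences were 0.17, 0.28 and 0.26 in these 3 families. They lie near the 0.22 of the negative control spots, and the part of the floor in them was not tested. The largest gain in the humanlincRNA family was 4.25 on the log2 scale, and 2 of its probes were at least 8-fold higher. No mouselincRNA probe reached 8-fold, and the family ran from -2.29 to 2.54.

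The lincRNA names also carry a plus or a minus sign. In 862 cases a plus and a minus probe share the family and the number. On the 3T3-L1 arrays neither was above background in 433 of these pairs, the plus probe alone in 166, the minus probe alone in 174 and both in 89. Among the 89 pairs, the differences had the same sign in 46, and in no pair were both probes at least 2-fold different. Pearson's r over the 89 pairs was -0.10, all from the same 2 arrays. At least 1 probe of the pair differed 2-fold or more in 18.

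Within the ASMM10P series, the number in the name went with the direction of the difference. This was noticed in blocks of 5000 numbers after the values were seen, and the files do not say how the numbers were given out. Both blocks up to number 10000 held more higher than lower probes, with shares of 9.74% and 11.7% higher and 8.41% and 7.73% lower. All 10 later blocks held more lower than higher probes, with shares of 6.57% to 9.68% higher and 7.01% to 12.8% lower. In counts, 834 were higher and 629 lower of 7796 numbered up to 10000, and 2517 and 3552 of 31467 above it. Both directions held under the 5 other scalings, most narrowly as 738 and 706 with the other 75th percentile and as 3018 and 3059 with scaling to the median.

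Within each of 5 parts by signal, the share of higher probes was larger, and that of lower probes smaller, up to number 10000 than above it. The direction of the balance did not differ between the 2 number ranges in every part, as the brightest and the dimmest show. In the brightest of 5 parts, 16.7% were higher and 5.31% lower up to number 10000, against 10.9% and 7.77% above it. In the dimmest, the shares were 6.53% and 10.2%, against 6.03% and 12.6%. Over all signal levels, C3H10T1/2 had the opposite balance, with 587 higher and 648 lower of 7487 up to number 10000 and 2653 and 2214 of 29953 above it. Differences of probes with neighbouring numbers had Pearson's r = 0.17 over 28163 pairs, 0.04 for numbers 5 apart and 0.00 for numbers 50 apart, all from the same 2 arrays.

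Among the 15 named genes, 12 had higher and 3 lower levels at day 4, and the difference reached 2-fold for 2 of the higher and 1 of the lower. These shares, 13.3% and 6.67% of only 15 genes, stand against 8.45% and 10.6% of all probes. Their median log2 difference was 0.18. Each gene has 20 spots on an array, and the SD over spots, with a median of 0.08, holds no spread between cultures. Levels of the spots did not overlap between the days for 9 of the 15 genes. With quantile normalization, normexp or the authors' values, 8 of the 15 lay above 0.

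**Figure D4:**
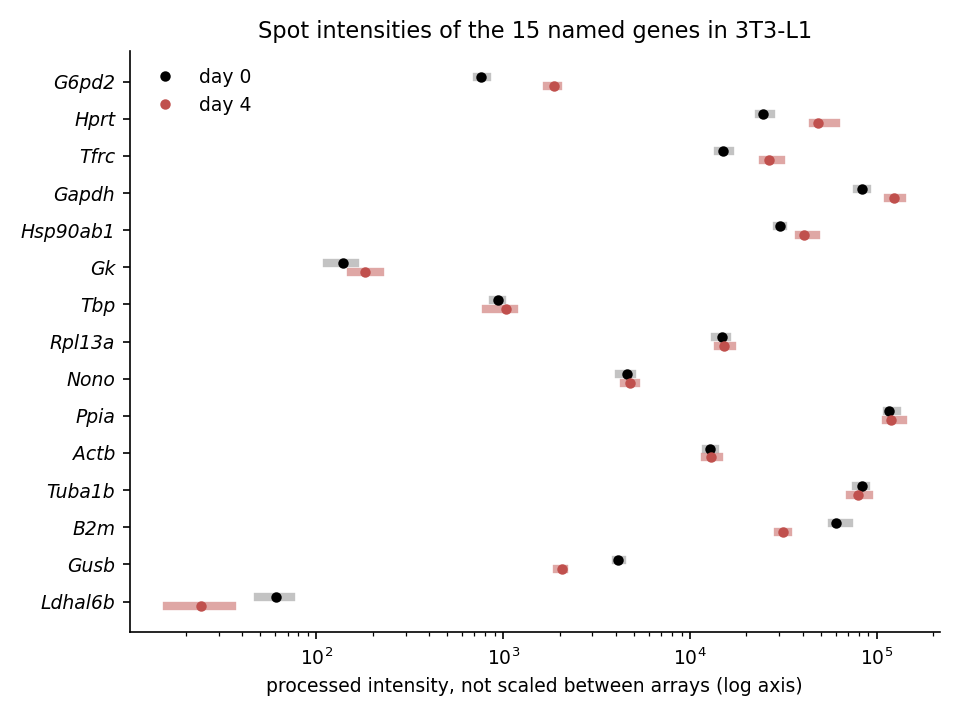
Points give the median and bars the range of the processed intensity over the spots of each named gene on the day 0 (black and grey) and day 4 (red) arrays of 3T3-L1, on a log axis and without scaling between arrays. G6pd2, Hprt and Tfrc lie to the right of day 0 at day 4, and B2m, Gusb and Ldhal6b to the left.

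Of the list of NADPH and pentose phosphate genes, 1 of 8 could be named, and likewise 1 of 8 for iron uptake and storage. The first, G6pd2, a copy of the gene for glucose-6-phosphate dehydrogenase, which makes NADPH at the entry of the pentose phosphate pathway, had spots between 720.8 and 813.7 at day 0 and between 1704 and 1966 at day 4. Its log2 difference was 1.40 ± 0.10 (SD over 20 spots), higher at all 20. Because G6pd2 is nearly identical to the X-linked G6pdx, which of them gave the signal is uncertain. Tfrc, the transferrin receptor that brings iron into the cell, had 14030 to 16440 and then 24640 to 30500, a log2 difference of 0.97 ± 0.09 (SD over 20 spots). In C3H10T1/2 the median Tfrc spot went from 5227 to 50070, a log2 difference of 3.09 ± 0.08 from a lower start.

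Of 13 glycolysis genes listed, 2 could be named, with 1 above 0 (Gapdh) and 1 below (Ldhal6b) and a median log2 difference of -0.24. The RefSeq probe of Gapdh, the enzyme that oxidises glyceraldehyde 3-phosphate, had spots between 77810 and 88700 at day 0 and between 114200 and 136600 at day 4, a log2 difference of 0.70 ± 0.08 (SD over 16 spots). Control probes named for Gapdh gave larger differences. Mouse-GAPDH_3 had 35450 to 38530 and then 76610 to 93520, a log2 difference of 1.32 ± 0.08 (SD over 9 spots). Mouse-GAPDH_5 had 18130 to 20590 and then 78180 to 92030, or 2.27 ± 0.06. What the 3 and the 5 in these names stand for is not given in the sources used here.

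Control probes of Pgk1, which makes ATP in the next step, were higher as well. The medians of Mouse-PGK1_3 were 55500 and 119200, and those of Mouse-PGK1_5 were 418.0 and 1551, or log2 differences of 1.19 ± 0.07 (SD over 8 spots) and 2.02 ± 0.12 (SD over 10 spots). Over mouse, human and rat names, all 6 control probes of Gapdh and all 6 of Pgk1 were higher at day 4, by 1.32 to 2.49 and by 1.19 to 2.53 on the log2 scale. For each of the 12 probes, the lowest spot at day 4 was above the highest at day 0. The probes of a gene differed among themselves beyond the SD of their spots, and Gapdh has processed pseudogenes, so a single size for either gene is not given. The brightest probe of each gene gave the smallest difference. For Gapdh it was 0.70 at a day 0 median of 83200, against 2.49 at 2682 for Rat-GAPDH_3. For Pgk1 it was 1.19 at 55500, against 2.53 at 71.99 for Rat-PGK1_3. Whether differences of bright probes were made smaller by their brightness was not tested. Ldhal6b, a lactate dehydrogenase-like gene, was near background, with 20 of 20 spots above it at day 0 and 6 of 20 at day 4. Its intensities were 48.4 to 72.7 and 15.8 to 35.1, a log2 difference of -1.18 or 2.27-fold lower. This is the plain difference, since its mean day 4 level of -3.88 lay above the lowest above-background level of -3.93. With normexp its log2 difference was -0.37, which is under 2-fold, and with the 4 other scalings it ran from -1.26 to -1.02. Of 16 genes of fatty acid and triglyceride synthesis 1 could be named. Gk, glycerol kinase, which makes glycerol 3-phosphate for triglyceride, was dim, with 114.3 to 161.6 and 152.6 to 220.1 and a log2 difference of 0.50 ± 0.13 (SD over 19 spots).

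Several genes often used as references were not level. Hprt, which salvages purines, had 23240 to 27190 at day 0 and 45460 to 60050 at day 4, a log2 difference of 1.15 ± 0.09 (SD over 17 spots). Its difference in C3H10T1/2 was 0.39 ± 0.12. B2m, β2-microglobulin, which pairs with class I histocompatibility heavy chains, was at 57710 to 70450 and then 29630 to 33500, or -0.81 ± 0.06. Gusb, the lysosomal β-glucuronidase, had 4031 to 4302 and 1934 to 2113, or -0.89 ± 0.04, while its C3H10T1/2 value was -0.08 ± 0.06. Under the 5 other scalings Hprt ran from 0.98 to 1.25, B2m from -1.11 to -0.71 and Gusb from -1.01 to -0.79. So the side of 2-fold on which these 3 genes lay depended on the scaling.

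Of the reference gene list, 9 of 18 genes could be named, with 7 above 0 and 2 below and a median of 0.18, against 0.03 over all compared probes. Tbp, the TATA-binding protein, differed by 0.24 ± 0.11 with overlapping spots. Rpl13a, a ribosomal protein (0.18 ± 0.08), Ppia, a peptidyl-prolyl isomerase (0.15 ± 0.05), and Actb, cytoplasmic actin (0.13 ± 0.07), also overlapped between the days, and these 3 lay slightly below 0 with quantile normalization, normexp and the authors' values. So did the α-tubulin gene Tuba1b, at 0.07 ± 0.08, which was below 0 with the other 75th percentile too. Actb, Ppia and Tuba1b have near-identical copies elsewhere in the genome, so the transcripts behind these probes are uncertain.

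The list of chaperones and RNA-binding proteins held the last 2 named genes. Hsp90ab1, a cytosolic chaperone, had 29110 to 31230 and then 38320 to 47400, a log2 difference of 0.59 ± 0.08 (SD over 18 spots), against -0.12 ± 0.08 in C3H10T1/2. Nono, an RNA-binding protein of paraspeckles, differed by 0.18 ± 0.05 with overlapping spots, and by 0.02 to 0.04 with quantile normalization, normexp and the authors' values.

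Sequences are shown for the named genes with the 2 highest and 2 lowest differences above background on both days, without G6pd2, whose signal is uncertain. The 250 bases before the RefSeq start sites of Hprt, Gusb and B2m follow, from the RefSeq table of GRCm38.p6, 5′ to 3′ on the gene's strand. The promoter table held 13 of the 15 genes. Capitals mark matches on either strand to 4 short promoter motifs, the GC box GGGCGG, the CCAAT box CCAAT, the E box CACGTG and the TATA box TATAAA. The arrays measured RNA and say nothing on the use of these letters.

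Hprt (GRCm38.p6, chrX:52987828-52988077, plus strand): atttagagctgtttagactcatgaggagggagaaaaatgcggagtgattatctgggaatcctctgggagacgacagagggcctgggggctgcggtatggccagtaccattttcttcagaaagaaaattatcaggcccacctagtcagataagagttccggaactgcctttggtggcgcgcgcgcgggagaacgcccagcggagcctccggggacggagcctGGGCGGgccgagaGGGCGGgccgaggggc

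Gusb (GRCm38.p6, chr5:130003050-130003299, minus strand): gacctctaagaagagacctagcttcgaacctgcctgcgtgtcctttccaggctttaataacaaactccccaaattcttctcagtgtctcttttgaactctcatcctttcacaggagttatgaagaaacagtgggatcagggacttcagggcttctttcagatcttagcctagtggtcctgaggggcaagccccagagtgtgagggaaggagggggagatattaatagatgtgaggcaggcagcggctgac

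B2m (GRCm38.p6, chr2:122147437-122147686, plus strand): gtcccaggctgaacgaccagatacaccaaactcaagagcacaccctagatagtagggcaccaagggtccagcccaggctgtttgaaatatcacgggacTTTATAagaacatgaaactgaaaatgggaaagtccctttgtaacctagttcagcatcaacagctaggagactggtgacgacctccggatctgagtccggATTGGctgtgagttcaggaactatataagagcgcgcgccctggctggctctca

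The higher gene, Hprt, holds 2 GC boxes and none of the other motifs in this window. Gusb holds none of the 4, and B2m holds 1 match to the letters of the CCAAT box and 1 to those of the TATA box. Both B2m matches are on the opposite strand. The TATA match lies nearer to the middle of the window than to the start site. Among 32851 promoters of the same length, 32.7% hold a GC box, 33.8% a CCAAT box, 6.02% an E box and 12.4% a TATA box. Of the 13 named genes in the promoter table, 7 hold a GC box and 5 a CCAAT box.

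The larger a difference was in 3T3-L1, the more often it was found in C3H10T1/2. The lines share no array, and 36949 probes were above background on at least 1 array of each. Of these, 3143 were higher in 3T3-L1 and 49.3% of them also in C3H10T1/2, which was 50.5% of the C3H10T1/2 list. Of 3777 lower probes 35.0% were also lower in C3H10T1/2, or 50.1% of the list there. Over all 36949 probes 8.31% were higher and 7.14% lower in C3H10T1/2.

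Among the higher probes, the shares at least 2-fold higher in C3H10T1/2 were 37.8% of 2339 for 2-fold to 4-fold differences in 3T3-L1, 80.5% of 538 for 4-fold to 8-fold, 86.8% of 159 for 8-fold to 16-fold and 88.8% of 107 from 16-fold. Among the lower probes the shares were 26.8% of 2825, 54.5% of 675, 65.6% of 195 and 81.7% of 82. At most 3.89% of a class differed 2-fold in the opposite direction. The shares were thus larger in each larger class, on both sides.

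Sizes in the lines lay further apart among the lower probes. For those at least 16-fold higher in 3T3-L1, the median log2 difference was 4.66 there and 4.49 in C3H10T1/2, and 64 of the 107 were at least 16-fold higher in both. For those at least 16-fold lower, the medians were -4.69 and -1.83, and 4 of the 82 were at least 16-fold lower in both. C3H10T1/2 itself had 180 probes at least 16-fold higher and 44 lower. The probes were grouped by their 3T3-L1 values alone. The counts in both lines ran from 32 to 70 for higher and from 1 to 5 for lower probes over the 5 other scalings. Of all 122 and 94 probes past 16-fold in 3T3-L1, 15 and 12 were below background on both C3H10T1/2 arrays. No difference between the lines has a test, with 1 array per group.

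**Figure D5:**
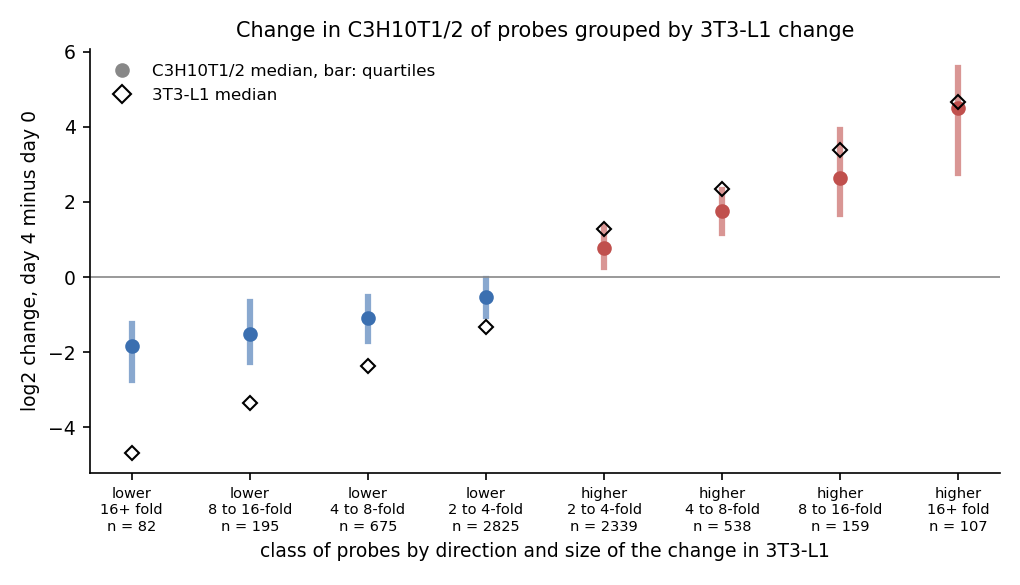
Probes above background in both lines are grouped on the x axis by direction and size of their 3T3-L1 difference; diamonds give the 3T3-L1 median, and points and bars the C3H10T1/2 median and quartiles, as log2 day 4 minus day 0. In the class at least 16-fold higher the medians were 4.66 and 4.49, and in the class at least 16-fold lower -4.69 and -1.83.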

How the data were processed

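Per the labels' protocols, rRNA was removed from total RNA and the rest was amplified along whole transcripts and labelled with Cy3. Agilent Feature Extraction 11.0.1.1 made the deposited scanner files, per the file headers, for an array designed on mm9, on 1 slide and in 1 scan for all 4 arrays. They hold an intensity per spot, background-subtracted and detrended within the array, with no scaling between arrays, and 0 or 1 flags. The deposited table of the authors' log2 values, whose method is not given in the sources used here, followed the log2 scanner intensity of each array (Pearson's r from 0.9994 to 1.0 across 60804 probes; every column median 5.94, not centred) and was an alternative only.

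Left out were control spots, negative control probes, 15 probes whose single spot was not uniform, and 61 outlier spots of repeated probes. The other spots of a repeated probe were averaged on the log2 scale, which left 60900 probes. A repeated probe was above background where at least 0.5 of its spots were. The threshold was 2-fold. Alternatives were quantile normalization and normexp (offset 50, median signals in place of means) with limma 3.58.1 in R 4.3.3, the 75th percentile over probes above background on all arrays, the median, the authors' values, other filters, no bounds and other thresholds. Code was tested on simulated data. Figures were drawn with matplotlib 3.10.9.

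The rule named every gene that the files or the RefSeq table of GRCm38.p6 name, since fewer than 40 could be (15 of 15 accessions matched, through unversioned accessions), the control probes with a gene name, and the 2 highest and 2 lowest other probes above background on both arrays. Of 20 gene lists, 13 held no named gene and the other 7 held 1 to 9. The comparison, the members and the lists were chosen with earlier results of these data known.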

Additional observations from a re-analysis of the deposited data

Results flagged for a closer look

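At every spot, 2 named genes differed between the days in opposite directions in the lines under the main scaling. Nono had a log2 difference of 0.18 in 3T3-L1 (18 of 18 spots higher) and -0.76 in C3H10T1/2 (18 of 18 lower). In 3T3-L1 Nono was at 0.04, 0.04 and 0.02 with quantile normalization, normexp and the authors' values. Ppia had 0.15 (17 of 17 higher) and -0.36 (12 of 12 lower). With the same 3 scalings its 3T3-L1 value was -0.02, -0.03 and -0.03, the sign it had in C3H10T1/2. With 1 array for each line and day, this difference between the lines was not tested.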

How the results depend on the processing

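No paired analysis was possible because each group has 1 array and the labels give no replicate numbers. With normexp on median signals and quantile normalization, 1989 probes were higher and 2373 lower, and 1000 and 702 of these also in C3H10T1/2. A 1.5-fold threshold gave 7559 and 8159, and 3187 and 3081 in both lines, and a 4-fold threshold gave 881 and 1091, and 392 and 207, by their construction. Lower probes outnumbered higher ones in 4 of 5 parts by signal in the main values, narrowly in the fourth with 829 against 809. They did so in 3 parts among probes above background on both arrays, without the filter, and with the 1.5-fold threshold. With scaling to the median they did so in 2. Apart from the thresholds, the cause was not tested. For normexp this includes the part of its offset of 50, which is added to every signal before log2. Of the named genes, Tuba1b turned to -0.12 with quantile normalization, -0.01 with the other 75th percentile, -0.12 with normexp and -0.14 with the authors' values. In the order quantile normalization, normexp and the authors' values, Actb turned to -0.05, -0.04 and -0.07, Ppia to -0.02, -0.03 and -0.03, and Rpl13a to -0.01, -0.02 and -0.0023. No probe counted as higher or lower in the main values was counted in the opposite direction under any of the 10 alternatives. This was largely fixed in advance, because the other filters, the lack of bounds and the other thresholds keep the main scaling. The other scalings moved the median log2 difference only to between -0.05 and 0.14, from 0.03. Dim signals limit what can be measured: 20663 probes were below background on both 3T3-L1 arrays, and 4647 on 1.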

Other observations

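Most array controls outside the comparison were not above background on both days in 3T3-L1. Of 12 probes named ERCC, 2 were above background on both days, with log2 differences of 0.14 and 0.66. Of 10 probes named E1A, 3 were, with differences between -0.94 and 0.29. Of 18 probes named DCP, 6 were, with differences between -1.13 and 0.32, and of 13 named ETG 1 was, with a difference of 0.35.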
